A study of Homo sapiens with 6 samples.

Results

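The replication-dependent histone genes are the clustered genes that encode the core histones H2A, H2B, H3 and H4 and the linker histone H1 for packaging newly made DNA. They were taken here as the genes whose symbol matches H2AC, H2BC, H3C or H4C followed by a number, or H1-1 to H1-6, which gave 69 of the 63186 genes in the table: 6 for H1, 17 for H2A, 18 for H2B, 13 for H3 and 15 for H4. Gene-level read counts came from 6 cultures of RBE, an established human cell line from a bile duct tumour of the liver (intrahepatic cholangiocarcinoma). Of these, 3 were transfected with siRNA against CHAF1A (si-CHAF1A) and 3 with a control siRNA (si-Ctrl), in both cases at about 60% confluency with Lipofectamine, with fresh medium after 24 h and harvest at 48 h. The labels name no other agent or genetic change in either group, and do not say how many siRNAs were used. The 3 libraries of a group are described as biological replicates, without saying how the cultures were kept apart, so p-values may cover only the spread among parallel wells.

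CHAF1A encodes the large subunit of chromatin assembly factor 1, which places new H3 and H4 on DNA behind the replication fork, so the comparison asks what happens to histone transcripts when a main user of new histones is reduced. Cells normally make the replication-dependent histone mRNAs in S phase. These mRNAs are not polyadenylated as other mRNAs are: they end just after a short stem-loop that is bound by SLBP, and they are degraded when replication stops. Some of the genes can also give longer, polyadenylated transcripts that run past the stem-loop, which have been described in differentiated and non-dividing cells. The replication-independent variants, by contrast, come from dispersed genes with ordinary polyadenylated mRNA.

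The stem-loop is shown first because the normal histone mRNA ends just after it. Longer transcripts can hold it as well, so its presence does not show which end a transcript has. In the GENCODE 29 transcripts (GRCh38), sequence matching the histone stem-loop consensus within 150 bases after the stop codon was present for 29 members, out of 65 that this annotation holds, 32 of which have no 3' UTR there to search. Over whole transcripts, 50 of 19684 protein-coding genes (0.254%) held a match on the sense strand. The sites below belong to 6 members that rose in the knockdown, written as DNA with the stem-loop in capitals and flanks in lower case. All 6 genes lie on chromosome 6, except H2BC21 on chromosome 1.
H2AC6: ccaaaGGCTCTTTTCAGAGCCcccctaccg
H2AC11: ccaacGGCTCTTTTCAGGGCCacccacgtc
H2BC5: ccaaaGGCTCTTTTAAGAGCCacgcatgtt
H2BC21: ccaaaGGCTCTTTTCAGAGCCacccaccta
H3C6: ccaaaGGCTCTTCTCAGAGCCaaccacttt
H4C8: ccaaaGGCCCTTTTCAGGGCCgcccacttt
In the longest of the transcripts with these sites the annotation does not stop at the capitals: it goes on for 1128 bases in H2AC6, 1761 in H2AC11, 39 in H2BC5, 1729 in H2BC21, 1862 in H3C6 and 1655 in H4C8. H2BC5 has a further annotated transcript with a 3' UTR of 384 bases, in which no match was found. The letters were shared between genes: the loop printed for H2AC6 and H2BC21 was found in 15 members, and that of H4C8 in 5.

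Library totals ran from 16564712 to 17601483 counts in si-CHAF1A and from 15643381 to 20918997 in si-Ctrl. The targeted gene stood at 11.1, 12.9 and 11.2 CPM in si-CHAF1A 1, 2 and 3, against 51.5, 59.8 and 51.0 CPM in si-Ctrl 1, 2 and 3, where CPM are counts scaled to library size after TMM normalisation. CHAF1A was 4.61-fold lower in the knockdown, at a log2 fold change of -2.21 with SE 0.10 (edgeR adjusted p = 2.57e-10). si-Ctrl 2 stood apart from the other controls on the second principal component (29.6, against -14.9 and -13.9). The 7 markers of bile duct cells, keratins 7, 8, 18 and 19 among them, summed to 5353 to 5874 CPM in si-CHAF1A and 4139 to 4806 CPM in si-Ctrl. Markers of hepatocytes summed to 30.3 to 53.0 CPM in si-CHAF1A and 16.4 to 25.8 CPM in si-Ctrl, of fibroblasts to 13.4 to 31.7 and 8.77 to 11.2, of endothelium to 6.604 to 8.86 and 2.41 to 3.77, and of leukocytes to 0.238 to 0.574 and 0.657 to 0.896. ALB was at or under 0.573 CPM in each library, so nearly all of the hepatocyte sum came from other markers in that list. The part of these markers in the results was not tested.

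The histone genes were higher in the CHAF1A knockdown. Of the 69, 16 passed the filter on low counts. Of these 11 were higher and 0 lower at an adjusted p of 0.05 by edgeR's quasi-likelihood test, adjusted over all 15911 tested genes; over those genes 18.5% were higher and 19.3% lower. The higher members were H1-2, the 3 tested H2A genes, 5 of 9 H2B genes, H3C6 and H4C8. At least 2-fold rises were found in 7 of the 16, against 4.19% of all tested genes, and 4 of those 7 passed the filter without reaching its level in all controls. The 3 knockdown libraries lay above the 3 control libraries at 11 of the 16, against 24.1% of all tested genes. The median log2 fold change was 0.81 over the 16 and 0.00 over all tested genes. Since the filter needs a level of 0.578 CPM in 3 libraries, 5 of the 16 passed it without reaching that level in all controls, and 4 of these 5 were the higher genes H2AC11, H2BC6, H2BC11 and H2BC18. The median over the 16 includes these genes and was not computed without them. The 11 that reached that level in each control library held 7 higher, 3 of them at least 2-fold, and 4 not past the test. The groups did not overlap at those 7 and overlapped at those 4. Whether poly(A) RNA was selected is not given in the sources used here, so counts from normal stem-loop mRNA and counts from longer polyadenylated forms cannot be told apart, in the single genes or in the sums. The other 53 members are described with the sums, which take in the assigned counts of all 69. Reads left unassigned because they match several genes would be missing from the sums, and their handling is not given.

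**Figure D1:**
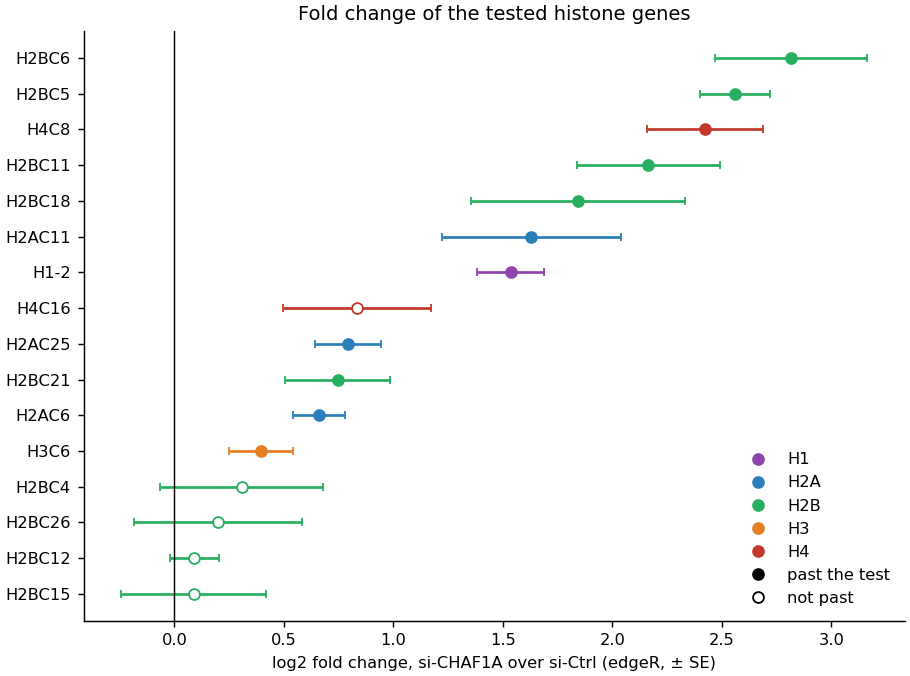
Fitted log2 fold change of si-CHAF1A over si-Ctrl for the 16 tested histone genes, with SE bars, coloured by histone type (filled where the edgeR adjusted p is under 0.05). All 16 fitted values lie above 0, from 0.09 to 2.82, and the 5 open points are H4C16 and 4 H2B genes. In other fits H2BC15 was at -0.15 without si-CHAF1A 2 and -0.10 without si-Ctrl 2, and H2BC26 at -0.08 without si-CHAF1A 3.

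The linker histone gene H1-2 (chromosome 6, 26055787 to 26056428, minus strand; GENCODE 29) encodes H1.2, which binds where DNA enters and leaves the nucleosome. It stood at 10.2, 10.4 and 13.1 CPM in si-CHAF1A and at 3.97, 4.19 and 3.44 CPM in si-Ctrl. Each knockdown library was above each control library, and the rise was 2.90-fold, or 1.54 on the log2 scale with SE 0.15 (edgeR adjusted p = 1.59e-06). None of the other 5 H1 members passed the filter: together they had 9 counts in si-CHAF1A and 13 in si-Ctrl, and H1-5 and the testis gene H1-6 had none. The summed signal of the H1 members was therefore nearly all H1-2. The linker variant H1-10 is not a member and is described with the replication-independent variants.

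All 3 tested H2A genes rose. H2AC6 (chromosome 6, 26124145 to 26139116) had 11.6, 11.4 and 12.1 CPM in si-CHAF1A and 7.10, 7.63 and 7.40 CPM in si-Ctrl. The replicates were tight and did not overlap (0.66 on the log2 scale, SE 0.12, edgeR adjusted p = 0.000385). H2AC25 (chromosome 1, 228456979 to 228457873), which lies outside the main clusters, had 7.97, 7.58 and 9.31 CPM in si-CHAF1A and 5.31, 4.75 and 4.30 CPM in si-Ctrl. It also rose without overlap (log2 fold change 0.79, SE 0.15, edgeR adjusted p = 0.000658). H2AC11 (chromosome 6, 27133042 to 27135291) was near 1 CPM, at 1.49, 1.32 and 1.29 CPM in si-CHAF1A and 0.640, 0.505 and 0.172 CPM in si-Ctrl. It rose by 1.63 on the log2 scale (SE 0.41, edgeR adjusted p = 0.00524), with 3 counts in the lowest control library. The fit gave between 1.25 and 1.95 under the alternatives.

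The H2B genes were the most uneven group, with 5 that rose and 4 that did not pass the test. H2BC5 (chromosome 6, 26158146 to 26171349) had 11.4, 10.5 and 11.2 CPM in si-CHAF1A and 2.11, 1.62 and 1.89 CPM in si-Ctrl. It rose 5.90-fold, or 2.56 on the log2 scale with SE 0.16 (edgeR adjusted p = 9.41e-09), and had the smallest p of the 16. H2BC6 (chromosome 6, 26172059 to 26184655) stood at 2.26, 3.10 and 2.41 CPM in si-CHAF1A and at 0.512, 0.253 and 0.344 CPM in si-Ctrl. Its rise of 2.82 on the log2 scale (SE 0.35, edgeR adjusted p = 1.24e-05) rests on 8, 5 and 6 control counts. An antisense gene overlaps H2BC5 and H2BC6, the pseudogene LARP1P1 overlaps H2BC5 on the same strand, and 76.1% of the windows of 150 bases in H2BC6 transcripts occur in no other GENCODE 29 gene.

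H2BC11 (chromosome 6, 27125897 to 27132750) had 3.03, 2.70 and 3.65 CPM in si-CHAF1A and 0.320, 0.960 and 0.746 CPM in si-Ctrl, a separation of 2.16 on the log2 scale (SE 0.33, edgeR adjusted p = 8.41e-05). H2BC18 (chromosome 1, 149782689 to 149812373) had 0.594, 0.804 and 1.29 CPM in si-CHAF1A and 0.256, 0.303 and 0.172 CPM in si-Ctrl (log2 fold change 1.84, SE 0.49, edgeR adjusted p = 0.00728). This gene overlaps FCGR1A on the opposite strand and AC243772.2 on the same strand, and without si-CHAF1A 3 its adjusted p was 0.0624. H2BC21 (chromosome 1, 149884459 to 149886652) had 4.22, 3.73 and 3.98 CPM in si-CHAF1A and 1.92, 1.82 and 3.38 CPM in si-Ctrl. Here si-Ctrl 3 came close to the knockdown libraries (0.74 on the log2 scale, SE 0.24, edgeR adjusted p = 0.0233). The adjusted p of H2BC21 rose above 0.05 in 5 of the 6 fits that left out 1 library, to at most 0.0822. Without si-Ctrl 2 it was 0.0624, at a fitted value of 0.57, and without si-Ctrl 3 the fitted value was 1.08.

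H2BC12 had more counts than any other member, 27.8% of all member counts, and did not pass the test. It stood at 22.4, 19.6 and 23.5 CPM in si-CHAF1A and at 18.8, 23.7 and 18.8 CPM in si-Ctrl. The groups overlapped fully (log2 fold change 0.09, SE 0.11, edgeR adjusted p = 0.565), and over the alternatives the value stayed between 0.03 and 0.21. The other 3 were lower in counts. H2BC4 had 1.01, 0.976 and 0.785 CPM in si-CHAF1A and 0.959, 0.505 and 0.803 CPM in si-Ctrl (log2 fold change 0.31, SE 0.37, edgeR adjusted p = 0.555). H2BC15 had 1.01, 2.12 and 1.74 CPM in si-CHAF1A and 2.11, 1.16 and 1.38 CPM in si-Ctrl (log2 fold change 0.09, SE 0.33, edgeR adjusted p = 0.862). H2BC26 had 0.594, 1.38 and 1.63 CPM in si-CHAF1A and 1.41, 0.910 and 0.860 CPM in si-Ctrl (log2 fold change 0.20, SE 0.38, edgeR adjusted p = 0.721). H2BC15 overlaps H2AC16 on the same strand and H2AC15 on the opposite strand. In all 4 the difference was smaller than its SE, and with these errors a moderate change in H2BC4, H2BC15 or H2BC26 was not detectable.

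**Figure D2:**
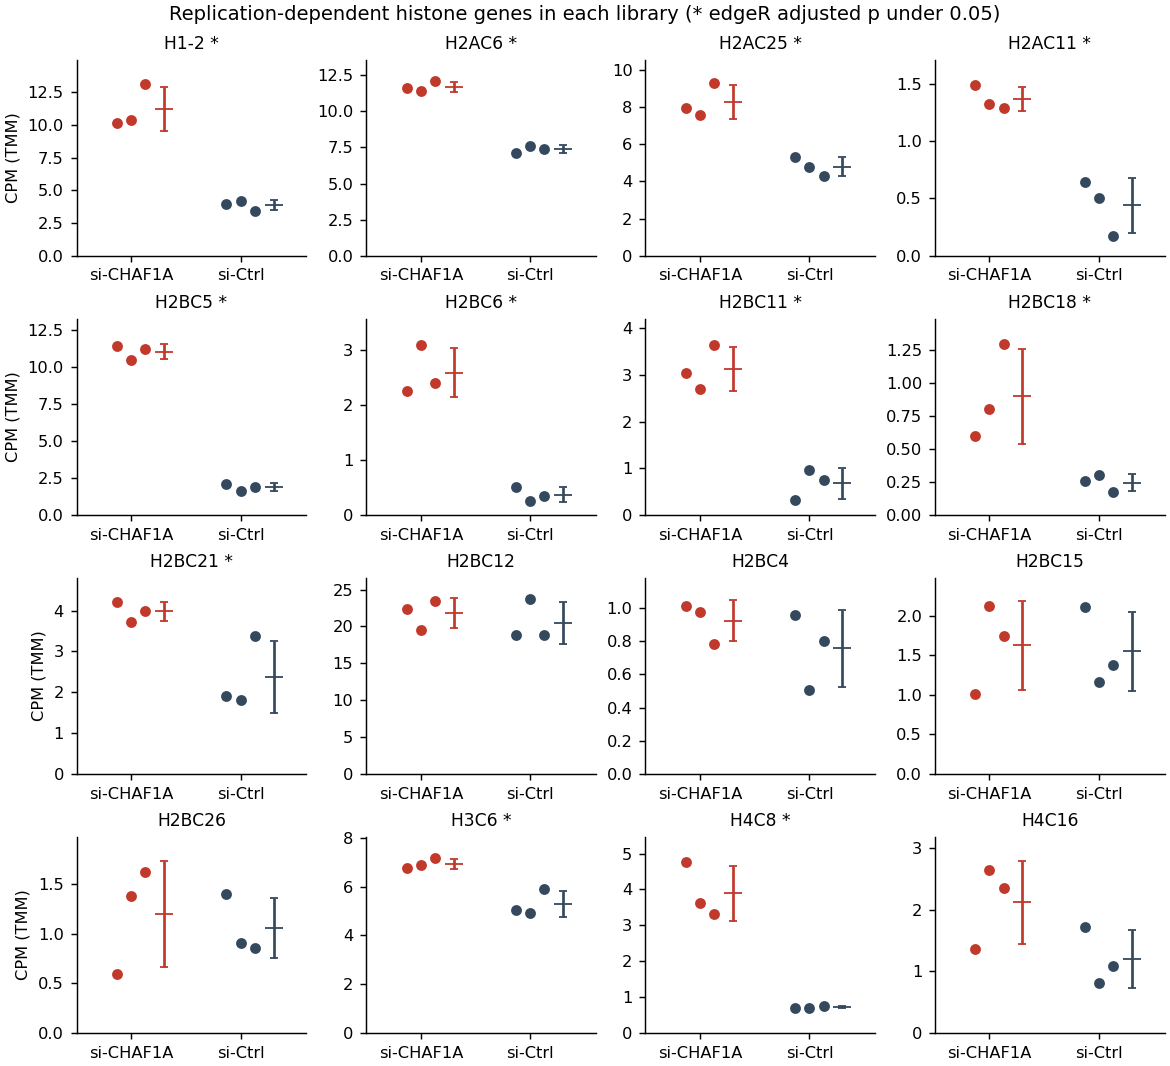
Level of each tested histone gene in the 3 si-CHAF1A libraries (red, left) and the 3 si-Ctrl libraries (dark, right), in CPM with TMM library sizes; the dash and bar beside the points are mean and SD, and each vertical axis starts at 0. The groups do not overlap at the 11 genes with an asterisk, while H2BC12, H2BC4, H2BC15, H2BC26 and H4C16 overlap.

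For H3 and H4, which CHAF1A delivers to DNA as a pair, few genes could be tested. H3C6 (chromosome 6, 26224199 to 26227473) was the single H3 gene past the filter, with 6.78, 6.89 and 7.18 CPM in si-CHAF1A and 5.05, 4.90 and 5.91 CPM in si-Ctrl. The groups did not overlap, and the rise was the smallest of the 11 (0.40 on the log2 scale, SE 0.15, edgeR adjusted p = 0.0436). This call was fragile: the adjusted p was 0.0952 by DESeq2, and over 11 alternatives it ran from 0.0298 to 0.129, with 8 above 0.05 (0.120 without si-Ctrl 2). H4C8 (chromosome 6, 26277609 to 26285638) had 4.76, 3.62 and 3.31 CPM in si-CHAF1A and 0.704, 0.707 and 0.746 CPM in si-Ctrl. It rose 5.37-fold, or 2.42 on the log2 scale with SE 0.27 (edgeR adjusted p = 3.72e-06). H4C16, the isolated H4 gene on chromosome 12 (14767999 to 14771131), had 1.37, 2.64 and 2.36 CPM in si-CHAF1A and 1.73, 0.809 and 1.09 CPM in si-Ctrl. The groups overlapped through si-CHAF1A 1 and si-Ctrl 1 (0.83 on the log2 scale, SE 0.34, edgeR adjusted p = 0.0637). Without si-CHAF1A 1 the adjusted p of H4C16 was 0.0292, and without si-Ctrl 1 it was 0.0230.

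Reads of near-identical copies can be exchanged between members, so the counts of all 69 genes were also summed by histone type, with no test. The whole family summed to 96.2, 92.9 and 104 CPM in si-CHAF1A and to 55.3, 57.6 and 53.6 CPM in si-Ctrl, which is 97.5 ± 5.47 against 55.5 ± 1.98 CPM (SD, n = 3 each) and a ratio of 1.76. H1 summed to 11.4 ± 1.56 CPM in si-CHAF1A and 4.11 ± 0.494 CPM in si-Ctrl, a ratio of 2.77. H2A summed to 22.4 ± 1.505 CPM in si-CHAF1A and 13.4 ± 0.636 CPM in si-Ctrl, a ratio of 1.67. In all 5 types the 3 knockdown libraries lay above the 3 controls. H2B, which held 51.0% of the member counts, reached 48.1 ± 3.00 CPM in si-CHAF1A and 29.8 ± 1.63 CPM in si-Ctrl, a ratio of 1.62 that rose to 2.82 without H2BC12. H3 reached 7.63 ± 0.141 CPM in si-CHAF1A and 5.61 ± 0.757 CPM in si-Ctrl, a ratio of 1.36, and nearly all of its counts were those of H3C6. H4 reached 8.03 ± 1.06 CPM in si-CHAF1A and 2.59 ± 0.329 CPM in si-Ctrl, a ratio of 3.10. H4 and H1 had the larger ratios and H3 the smallest, and the differences between types were not tested. In bulk RNA a change in the share of cells that make a transcript and a change in its amount per cell cannot be told apart.

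**Figure D3:**
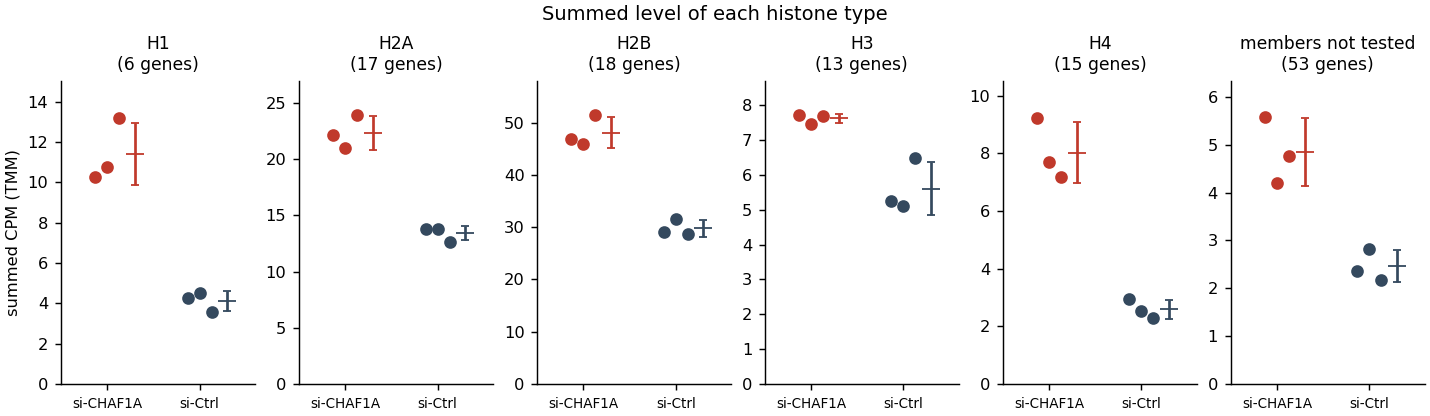
Summed CPM of all genes of each histone type, and of the 53 genes that did not pass the low-count filter, in si-CHAF1A (red, left) and si-Ctrl (dark, right) libraries; dash and bar are mean and SD, and axes start at 0. In each panel the 3 si-CHAF1A points lie above the 3 si-Ctrl points, with the narrowest gap for H3.

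The 53 members under the filter had few assigned reads. Of these, 21 had no count in any library, where for a gene whose reads can be assigned 0 of 105319756 counts allows a level of up to 0.0285 CPM: 2 of H1, 5 of H2A, 5 of H2B, 5 of H3 and 4 of H4. The other 32 had 1 to 40 counts over the 6 libraries. Of the 53, 11 share most of their windows of 150 bases with other genes, and 5 of these were among those at 0, so a low count there does not show a low level. Together the 53 genes had 5.59, 4.19 and 4.77 CPM in si-CHAF1A and 2.37, 2.83 and 2.18 CPM in si-Ctrl, from 252 and 131 counts. In H4, 13 genes had 52, 25 and 27 counts in si-CHAF1A and 8, 20 and 8 in si-Ctrl, with the highest number in si-CHAF1A 1. The other types had 54 and 43 counts for H2A, 50 and 22 for H2B and 35 and 17 for H3, and in each of these 3 types the libraries of the groups overlapped. Fitted with no filter, 12 members were higher and 0 lower, against 8.45% of 35659 genes higher. In that fit H4C15 and H4C9, named after their values were seen, had edgeR adjusted p-values of 0.0251 and 0.0303. H4C15 had 18, 10 and 4 counts in si-CHAF1A and 3, 4 and 1 in si-Ctrl, and 2.97% of its windows of 150 bases are its own, so it cannot be separated from its copies.

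An annotated end well beyond the stop codon was more frequent among the tested members than among the others. A 3' UTR of more than 300 bases in GENCODE 29 was found for 13 of the 16 tested members, 7 of the 28 located in GENCODE 29 that had few counts and 3 of the 21 with none. Of the 3 tested exceptions, H2BC12 and H2BC4 span 8566 and 10757 bases in RefSeq, far beyond the coding part, while H1-2 spans 731. A long end did not by itself go with counts, since H2BC9 and H3C8, named after their values were seen, have 3' UTRs of 1679 and 1569 bases there and no count (in RefSeq both genes are short, spanning 462 and 496 bases). Nor did it separate the called genes: 10 of the 11 higher members and 3 of the 5 others had one. A longer gene model also collects more reads, and the annotation behind the deposited counts is not given in the sources used here, so these shares are a description of the gene models. Counts of listed small RNAs without a poly(A) tail were uneven. The 33 listed summed to 137, 147 and 104 CPM in si-CHAF1A and to 87.9, 248 and 137 CPM in si-Ctrl, nearly all from RN7SL1, while RN7SK and RN7SL2 were at 0. Of the 33, 15 had no count and 3 passed the low-count filter. The sum is therefore mainly a value of RN7SL1 and does not measure RNA without a tail in general. The groups overlapped in that sum, and its part in the results was not tested.

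**Figure D4:**
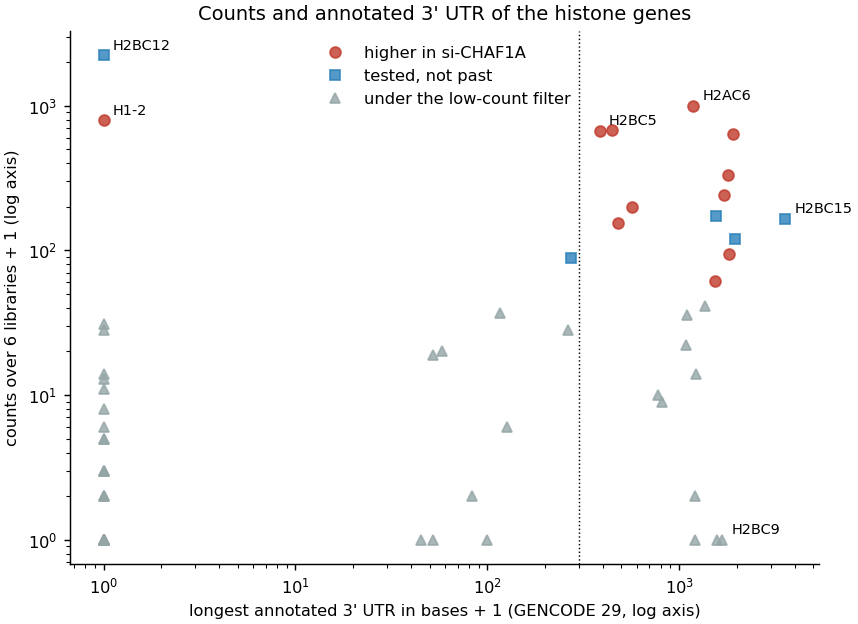
Counts over the 6 libraries plus 1 against the longest annotated 3' UTR plus 1 (GENCODE 29, both axes logarithmic) for members found in GENCODE 29; the dotted line marks 300 bases. The tested members (circles and squares) lie mostly to the right of the line, with H2BC12 and H1-2 at the left edge because GENCODE 29 gives them no 3' UTR.

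Histone genes often lie head to head and share the DNA between their starts. In GENCODE 29, 12 such pairs of members start within 500 bases of each other, and in 3 pairs both genes were tested. H2AC11 and H2BC11 start 292 bases apart, and both rose (1.63 and 2.16 on the log2 scale). Both of these genes passed the low-count filter without reaching its level in all controls. H2AC6 rose by 0.66 while H2BC4, 219 bases away, was at 0.31 and did not pass. H2AC25 rose by 0.79 while H2BC26, 234 bases away, was at 0.20 and did not pass. The difference between the partners was not tested. By position, 6 of 7 tested members were higher in the block at 25726132 to 26285638 on chromosome 6, 2 of 3 in that at 27125897 to 27147515 and 0 of 1 in that at 27807444 to 27893843. Of 5 other tested genes inside the first block (HFE, LINC02980, SLC17A1, SLC17A3 and TRIM38), 1 was higher and 1 lower, with a median log2 fold change of -0.08. On chromosome 1, 2 of 2 were higher in the block at 149782689 to 149887916 and 1 of 2 in that at 228456979 to 228460470. Over all tested genes 18.5% were higher and 19.3% lower. Each block holds few tested members, and differences between blocks were not tested. The block counts include H2AC11, H2BC6, H2BC11 and H2BC18, which passed the filter without reaching its level in all controls.

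Promoters are shown for a pair in which both genes rose (H2AC11), a pair in which 1 gene rose (H2AC25) and the member with the smallest p (H2BC5), from RefSeq (GRCh38.p14), 250 bases before to 50 after the start. Capitals mark 4 motifs searched on both strands, where matches may overlap: the octamer ATTTGCAT (bound by OCT1, the product of POU2F1, in H2B promoters), the TATA box as TATAAA, the CCAAT box, and the H1 box as AAACACA. The first is the H2AC11 window (chr6:27132793-27133092, plus strand), which covers most of the DNA between the starts of H2AC11 and H2BC11. The second is H2BC5 (chr6:26157871-26158170, plus strand). The third is H2AC25 (chr1:228457824-228458123, minus strand), which reaches the start of H2BC26.
H2AC11: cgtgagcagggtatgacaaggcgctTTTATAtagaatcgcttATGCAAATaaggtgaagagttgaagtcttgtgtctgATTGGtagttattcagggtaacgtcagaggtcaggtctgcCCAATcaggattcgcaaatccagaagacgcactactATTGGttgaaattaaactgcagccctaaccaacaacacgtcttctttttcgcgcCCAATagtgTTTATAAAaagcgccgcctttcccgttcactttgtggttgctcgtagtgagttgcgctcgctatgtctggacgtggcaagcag
H2BC5: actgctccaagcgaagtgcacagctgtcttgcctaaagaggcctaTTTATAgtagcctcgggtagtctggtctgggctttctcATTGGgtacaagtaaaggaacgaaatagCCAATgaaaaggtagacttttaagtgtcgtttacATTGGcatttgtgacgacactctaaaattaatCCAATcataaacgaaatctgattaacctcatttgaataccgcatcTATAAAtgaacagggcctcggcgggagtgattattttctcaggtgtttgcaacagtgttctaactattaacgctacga
H2AC25: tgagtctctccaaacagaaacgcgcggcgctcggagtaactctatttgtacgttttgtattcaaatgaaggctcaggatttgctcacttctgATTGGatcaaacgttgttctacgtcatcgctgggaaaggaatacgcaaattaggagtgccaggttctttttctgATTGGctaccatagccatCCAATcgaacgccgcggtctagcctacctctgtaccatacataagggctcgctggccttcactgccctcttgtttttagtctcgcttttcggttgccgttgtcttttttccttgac
Of the 69 members 64 had a promoter entry. The octamer was in 26 of them (14 of 18 H2B, 11 of 16 H2A, 1 of 11 H3, 0 of 6 H1 and 0 of 13 H4), against 1.77% of all 35116 promoters. The H3 entry, for H3C4, is the same window as that of H2AC7, so this promoter is counted under both genes. The octamer was in 6 of the 11 higher members and 2 of the 5 tested members that did not pass. Of the higher ones with it, H2AC11, H2BC6, H2BC11 and H2BC18 passed the low-count filter without reaching its level in all controls. The same holds for H2BC4 among those that did not pass, so these counts are a description only. H2BC5, with the smallest p, holds TATAAA and CCAAT but not the octamer. CCAAT was in 54 of 64 (34.6% of all promoters), TATAAA in 42 (11.5%) and the H1 box in 9, among them 6 of 6 H1 genes (5.64%). H4C8 holds none of the 4 in this window. Neighbouring windows of a pair share bases, so the members are not independent, and a match is only a match of letters.

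Among the factors that make and process histone mRNA, more genes fell than rose. Of 45 tested, 4 were higher, 19 lower and 22 not past the test, against 18.5% and 19.3% of all tested genes, with a median log2 fold change of -0.19 (0.00 over all genes). Without si-Ctrl 2, 26 were lower. The share over all genes in that fit is not given here, so the larger count does not show a stronger fall. Among 12 genes of transcription 2 were higher and 3 lower. NPAT, the cyclin E-CDK2 substrate that switches on the histone clusters, fell by 0.40 (SE 0.11, edgeR adjusted p = 0.0097), at 12.97 ± 1.06 CPM in si-CHAF1A and 17.1 ± 1.54 CPM in si-Ctrl (SD, n = 3 each). Cyclin A2 (CCNA2) fell by 1.01 on the log2 scale (SE 0.07, edgeR adjusted p = 3.40e-08), the largest fall of the list. CASP8AP2 (FLASH), which works with NPAT and in cleavage of the mRNA end, was at -0.23 and did not pass (edgeR adjusted p = 0.0992). The 2 higher genes, named after their values were seen, were CCNE1 at 0.34 and POU2F1 at 0.35.

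Among 17 genes of end processing, 9 were lower and 1 higher. Over all tested genes, the background for each role here, 19.3% were lower and 18.5% higher. SLBP, the stem-loop binding protein, fell by 0.26 (SE 0.07, edgeR adjusted p = 0.00671), at 107 ± 4.69 CPM in si-CHAF1A and 128 ± 5.93 CPM in si-Ctrl. Of the subunits particular to the U7 snRNP, which cuts the mRNA after the stem-loop, LSM11 fell by 0.32 (edgeR adjusted p = 0.0108) and LSM10 was at -0.32 and did not pass (edgeR adjusted p = 0.0596). SNRPE and SNRPG, Sm proteins shared with the spliceosome, fell by 0.58 and 0.63. In translation and export, 3 of 6 were lower and 1 higher: CTIF, a translation factor that acts with the nuclear cap-binding complex, rose by 0.58 (SE 0.07, edgeR adjusted p = 1.64e-05), and SRSF3, a splicing factor that also serves in export of histone mRNA, fell by 0.40. In decay, 4 of 10 were lower and 0 higher, PNPT1 (polynucleotide phosphorylase) by 0.61.

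**Figure D5:**
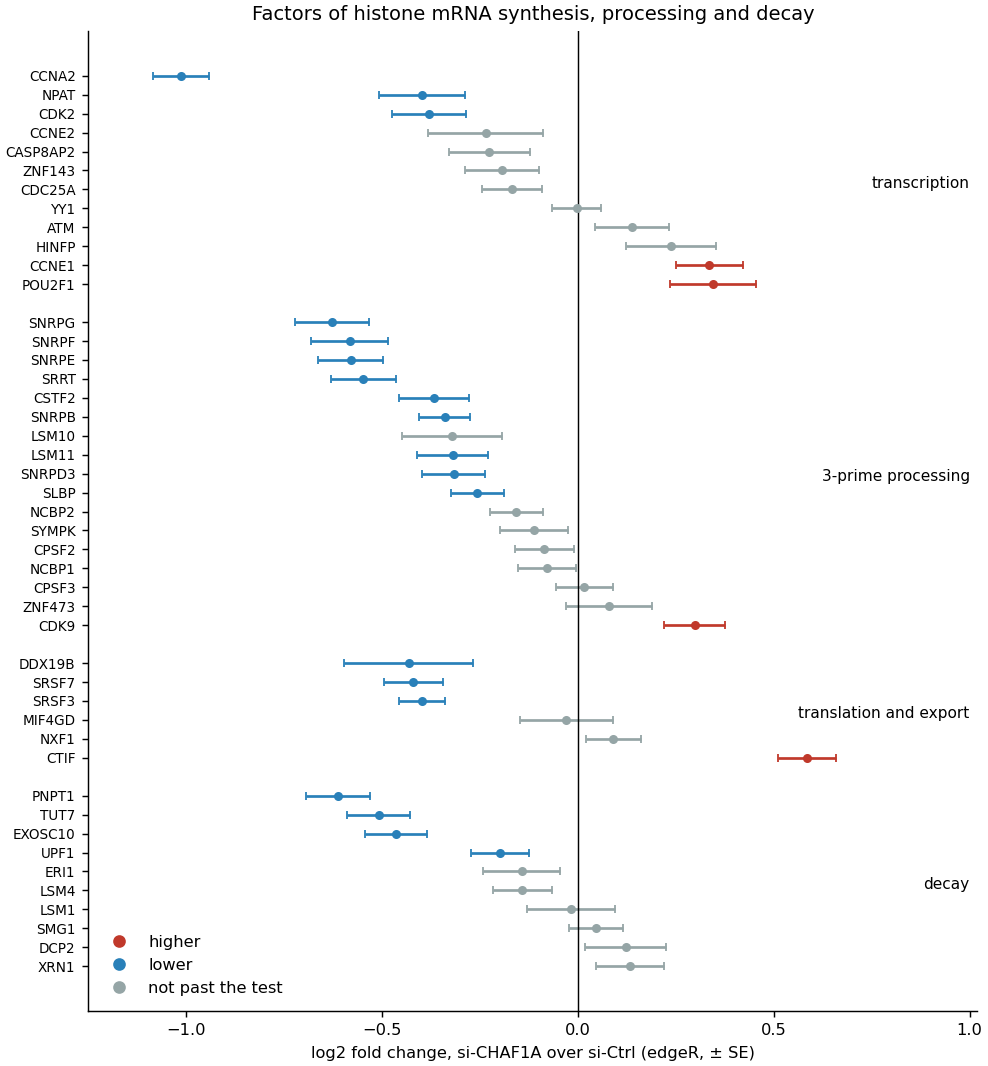
Fitted log2 fold change with SE of si-CHAF1A over si-Ctrl for 45 genes that act on histone mRNA, grouped by role, in red where higher, blue where lower and grey where not past the test (edgeR adjusted p of 0.05). Blue points are in each role, from CCNA2 at -1.01, and red ones are CCNE1, POU2F1, CDK9 and CTIF.

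S phase genes, which are normally active when histone genes are, did not rise with them. Of 40 tested, 0 were higher and 26 lower, with a median of -0.32, against 18.5% higher and 19.3% lower over all tested genes. Without si-Ctrl 2, 31 were lower and 1 higher, and with library totals alone 2 were higher and 22 lower. The shares over all genes in those fits are not given here. The ribonucleotide reductase subunit RRM1 fell by 0.72, the polymerase alpha subunit POLA1 by 0.84, the dUTPase DUT by 0.65 and RFC4 of the clamp loader by 0.60. MCM6 of the replicative helicase fell by 0.56 and MCM10, which helps to activate it, by 0.60 (edgeR adjusted p from 8.00e-07 to 6.10e-05 over these 6 genes). The replication-independent variants were split. Of 17 variant genes, 11 passed the low-count filter, with a median of 0.00. Of these, 3 were higher and 4 lower (27.3% and 36.4%), against the same 18.5% and 19.3% of all tested genes. Without si-Ctrl 2, 4 were higher and 3 lower. H2AZ1 and H2AZ2, which mark promoters, fell by 0.56 and 0.54, the centromere histone CENPA fell by 0.68 and H1-10 fell by 0.25. Among the higher ones, H2AJ rose by 0.43 and H3-3A by 0.26. H2AX, a variant gene whose transcripts can end either at a stem-loop or with a poly(A) tail, was at -0.13 (edgeR adjusted p = 0.160), and H3-3B, the partner gene of H3-3A for the variant H3.3, was at 0.00 (edgeR adjusted p = 0.997). The difference between these lists and the members was not tested.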

How the data were processed

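The authors deposited 1 table of raw counts per gene. The submitters' processing notes name fastp 0.20.1, HISAT2 2.1.0, SAMtools 1.9, featureCounts 2.0.1, StringTie 2.1.4 and hg38. Annotation release, handling of reads with several matches and strand setting: not given in the sources used here. Hence the assignment of reads among near-identical, overlapping or antisense genes is uncertain. Whether poly(A) RNA was selected is not given either. The design text describes stranded libraries of 150 bp paired reads.

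Columns named NC and si were matched by number to si-Ctrl and si-CHAF1A, which the labels do not state; 0 other columns were present. Symbols came from a gene name table (62665 of 63186 identifiers), positions and transcripts from GENCODE 29 (65 of 69 members), promoters from RefSeq. Genes were kept by filterByExpr (minimum count 10, minimum total 15). Groups were compared with edgeR 4.0.16 in R 4.3.3 (robust quasi-likelihood test, TMM, no covariate), adjusted by Benjamini-Hochberg over 15911 genes at 0.05, after checking on simulated data. SE is the fold change divided by the square root of F. DESeq2 1.42.0, other scalings, no filter, a replicate block and leaving out each library were alternatives. No 2 libraries were duplicates (chi-square per degree of freedom 2.30 to 13.7 within groups). Limits from counts of 0 use 3 counts and cover counting error only.

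The rule for named genes took CHAF1A, every member past the filter, and of each other list up to 6 genes past the test with the smallest adjusted p, plus SLBP, NPAT, CASP8AP2, LSM10, LSM11, H2AX, H2AZ1, H3-3A and H3-3B. Of the genes this rule takes, 1 is not reported here. Members, lists and tests were chosen with earlier results of these data known.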

Additional observations from a re-analysis of the deposited data

How the results depend on the processing

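Of the 11 higher members, 8 were higher under each of 11 alternatives, and the exceptions were H2BC18, H2BC21 and H3C6. Those 8 include H2AC11, H2BC6 and H2BC11, which passed the low-count filter without reaching its level in all controls. The count of higher members was 10 with DESeq2 (17% of all its tested genes), 11 with either other scaling, 12 with no filter and 9 to 11 without single libraries; the count of lower members was 0 in each. Same-numbered libraries showed no shared deviation (correlations -0.0859, -0.0643 and -0.00313). With 3 libraries per group and columns matched by number, this cannot settle whether cultures were handled in pairs. With the replicate block 10 members were higher (16.8% of all tested genes). S phase genes had 2 higher members with library totals alone and 0 to 1 without single libraries. Shares over all genes are not given here for the other scalings or for fits without single libraries. H4C16 passed without si-CHAF1A 1 (1.06) or without si-Ctrl 1 (1.16). Ratios of summed levels ran without single libraries from 2.56 to 2.91 for H1, 1.61 to 1.72 for H2A, 1.56 to 1.66 for H2B, 1.30 to 1.47 for H3 and 2.87 to 3.32 for H4. Low counts left 53 of 69 members untested, and unknown poly(A) selection and handling of shared reads limit what the counts stand for.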
